A study of Drosophila melanogaster with 3 samples.

Results

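CG6163 and the 9 protein-coding genes around it lie between positions 11240000 and 11450000 of chromosome arm 3L in the fruit fly (dm6 assembly). In prepupae that made CG6163 fused to the green fluorescent protein eGFP, 103 of the 10894 peak summits in the conservative list of CG6163-eGFP binding fell inside this stretch of 210 kb. The 10 genes, in order along the chromosome, are scyl, Dyro, CG7573, CG6168, CG6163, CG11726, CG44362, CG7560, CG6149 and CG7557. They are all of the protein-coding genes annotated there, 10 of 13945 in the genome, and the annotation adds 19 noncoding genes. The stretch and its genes were chosen on the positions, signals and library matches of these same peaks. Those values are therefore given as a description, with no test.

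The assay was chromatin immunoprecipitation followed by sequencing (ChIP-seq), in which sonicated chromatin is pulled down with an antibody and the recovered DNA is mapped to the genome. The antibody was against GFP, and a peak marks a place where more fragments were recovered than around it, its summit being the highest point. There was 1 group, with 3 biological replicates of whole prepupae of the strain CG6163-GFP, of a stage the labels call unknown. The labels describe the flies as transgenic with an insertion that targets CG6163, and they name 1 donor strain for all 3 replicates. No source used here gives the insertion's site or length. DNA of an inserted copy and DNA of the native locus therefore cannot be told apart at CG6163. How far into the sequence around the gene this limit extends is unknown. Whole animals mix all cell types, so peaks cannot be placed in a tissue. A control experiment named in the labels was not used directly here, and whether the authors' peak values took it into account was not checked. The replicates may share culture conditions that the labels do not describe.

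A protein of this kind is mapped to learn which genes it sits beside. The RefSeq annotation gives CG6163 and 7 of its 9 neighbours a number for a name and no description, so no role is stated for them here. The other neighbours are scyl (scylla), which with its relative charybde (chrb) restrains growth through the TOR kinase under hypoxia and other stress, and Dyro, which RefSeq names after repression of a Diptericin reporter on overexpression. Diptericin is an antimicrobial peptide gene driven by the Imd immune pathway. Promoters are the stretches around transcript starts where the transcription machinery assembles, and enhancers, which act on promoters, often lie in introns and between genes.

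The sequences at the strongest summits show what DNA carried the peaks. Windows that extend 50 bp either way from the summit come first, on the plus strand of 3L in the RefSeq Release 6 assembly. In capitals are matches on either strand to 5 short motifs. These are GAGAG, a core bound by GAGA factor, and TATAAA, the TATA box. The motif AGATAA is known from GATA factors, and TATCGATA from DREF and BEAF-32. The last is ACGTG. The first is the strongest summit of the stretch (chr3L:11369178-11369278), which lay 4343 bp upstream of the CG6163 start. The other (chr3L:11364383-11364483) lay 452 bp inside the gene.
CG6163 distal summit: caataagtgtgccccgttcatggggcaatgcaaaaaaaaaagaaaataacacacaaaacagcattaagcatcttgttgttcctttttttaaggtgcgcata
CG6163 intron summit: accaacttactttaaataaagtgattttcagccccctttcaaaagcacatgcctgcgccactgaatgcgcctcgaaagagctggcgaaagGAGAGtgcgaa
The strongest summits of 3 other neighbourhoods come next. They lay 6074 bp upstream of scyl (chr3L:11246183-11246283), 4014 bp downstream of the CG6149 start (chr3L:11431412-11431512) and 4160 bp upstream of CG6168 (chr3L:11325829-11325929). They are named by the nearest protein-coding start. Noncoding starts lay closer to the scyl and CG6168 ones, at 720 bp (lncRNA:CR44713) and 879 bp (lncRNA:CR44723).
scyl distal summit: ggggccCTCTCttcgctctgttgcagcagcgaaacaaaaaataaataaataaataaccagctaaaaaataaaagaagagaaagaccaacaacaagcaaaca
CG6149 distal summit: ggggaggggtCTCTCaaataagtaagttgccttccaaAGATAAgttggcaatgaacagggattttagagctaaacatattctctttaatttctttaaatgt
CG6168 distal summit: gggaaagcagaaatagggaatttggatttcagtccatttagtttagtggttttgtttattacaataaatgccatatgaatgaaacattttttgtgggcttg
The 100 bases in front of the starts of scyl (chr3L:11252207-11252306, plus strand) and CG6163 (chr3L:11364886-11364985, minus strand) are shown because each gene had a promoter summit that all 3 replicates matched. The scyl summit lies within its printed bases, and the CG6163 summits lie outside theirs.
scyl promoter: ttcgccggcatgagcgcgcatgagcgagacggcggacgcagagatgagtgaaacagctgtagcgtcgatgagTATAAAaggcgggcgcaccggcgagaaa
CG6163 promoter: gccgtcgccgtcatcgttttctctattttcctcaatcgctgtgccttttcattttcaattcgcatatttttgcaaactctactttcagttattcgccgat

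The scyl promoter is GC-rich, with 40.0% A or T, and holds TATAAA with its first base 28 bases before the start. The bases in front of CG6163, which hold no summit, have 59.0% A or T and none of the motifs in capitals. GAGAG was present in 4 of the 12 strongest summit windows of the stretch, and 6 of the 12 held none of the motifs other than CANNTG (the E-box core, N being any base, left in lower case).

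Over all 103 windows no motif was present in most of them. GAGAG was found in 12 (11.7%), against 16.3% of the 10789 windows in the rest of the genome, and TATAAA in 13 (12.6%), against 15.7%. AGATAA was found in 4 (3.88%), against 6.24%. ACGTG, the core bound by the hypoxia factor that includes sima and by other helix-loop-helix proteins, was found in 13 (12.6%), against 6.78%, and CANNTG in 40 (38.8%), against 36.5%. TATCGATA was found in 0 windows, against 0.686%. Of the 100-base stretches in front of 19253 protein-coding starts, 15.3% held GAGAG, 18.1% TATAAA, 6.39% AGATAA, 7.41% ACGTG, 39.6% CANNTG and 5.13% TATCGATA. CANNTG can overlap ACGTG. The windows of the stretch averaged 58.2% A or T, against 61.0% in the rest (SD over the windows of the stretch, 12.9 percentage points). A match is only a run of letters and names no bound factor.

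Summits were crowded in this stretch. There were 49.0 per 100 kb, against 8.41 in the rest of 3L and 8.07 in the rest of the main chromosomes. In the replicates' own thresholded lists, replicate 1 had 71 summits in the stretch, or 33.8 per 100 kb against 5.52 elsewhere. Replicate 2 had 81, or 38.6 against 5.86, and replicate 3 had 57, or 27.1 against 4.33. The mean of the replicates was 33.2 ± 5.78 per 100 kb in the stretch and 5.24 ± 0.803 elsewhere (SD, n = 3). The stretch was outlined around these peaks, so the gap between inside and outside follows from that choice. The IDR (irreproducible discovery rate) is low for peaks whose rank is stable between sets. At an IDR of 0.001 or lower, 68 conservative summits remained. These include weak summits that carry the same IDR as a stronger neighbour, such as one with a signal of 3.86 beside one of 178. The summits of the stretch made up 0.983% ± 0.034 of the replicates' lists. The lists held 7449, 7920 and 5844 peaks in replicates 1, 2 and 3. Read depth is unknown here, and the number of peaks is no measure of it.

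The crowding was not particular to CG6163. Among windows of 210 kb opened at each summit and kept where they did not overlap a denser one, the densest held 106 summits (chr3L:615637-825637). The window opening at the first summit of the stretch came next with 103. The next after these, also on 3L (from 10648624), held 74, and a pair on X held 63 each. Since the stretch was outlined around its own summits, its place in this order is a description. In the 200 kb to its left lay 21 summits, 10.5 per 100 kb, and in the 200 kb to its right 27, 13.5 per 100 kb. Just inside the left limit the first summit had a signal of 169 and a peak in 3 replicates, and the nearest one outside, 27049 bp away, had 136 and a peak in 1. Just inside the right limit the last summit had 553 and 3 replicates, and the nearest outside, 38641 bp away, had 179 and 2.

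**Figure D1:**
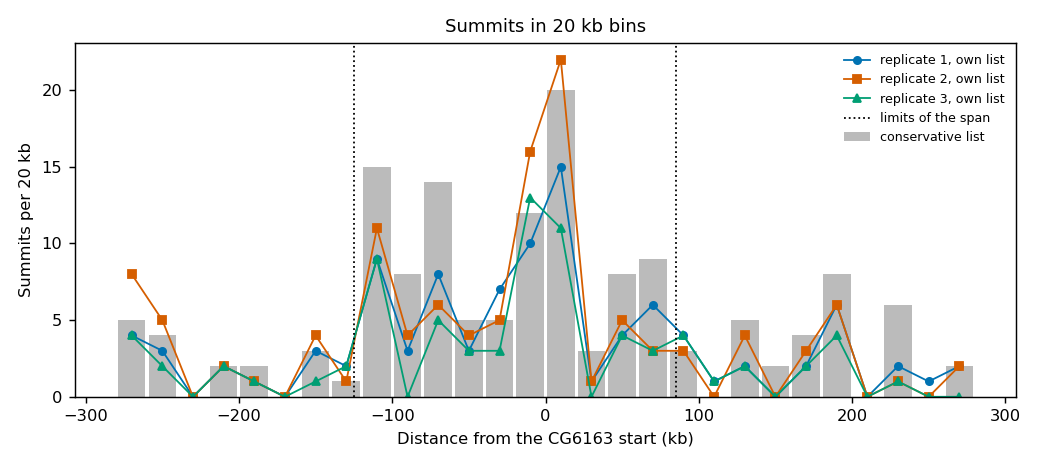
Number of summits in bins of 20 kb, placed by distance from the annotated CG6163 start in kb, with the conservative list as grey bars, each replicate's own thresholded list as a line, and dotted lines at the limits of the stretch. The bin from 0 to 20 kb is the highest in the conservative list (20) and in replicates 1 and 2 (15 and 22), the bin to its left is the highest in replicate 3 (13), and conservative bins outside the stretch hold 0 to 8.

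Around CG6163 itself, the 20 kb to the right of its start, which is the upstream side because the gene reads leftward, held 20 summits, and the 20 kb to the left held 12. The replicates' own lists had 15, 22 and 11 on the right and 10, 16 and 13 on the left. The median signal was 187 on the right and 312 on the left. A further group of 15 lay 100 to 120 kb to the left, around scyl, and 14 lay 60 to 80 kb to the left, around Dyro. From 20 to 40 kb on the right, where CG11726 and CG44362 start, there were 3.

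**Figure D2:**
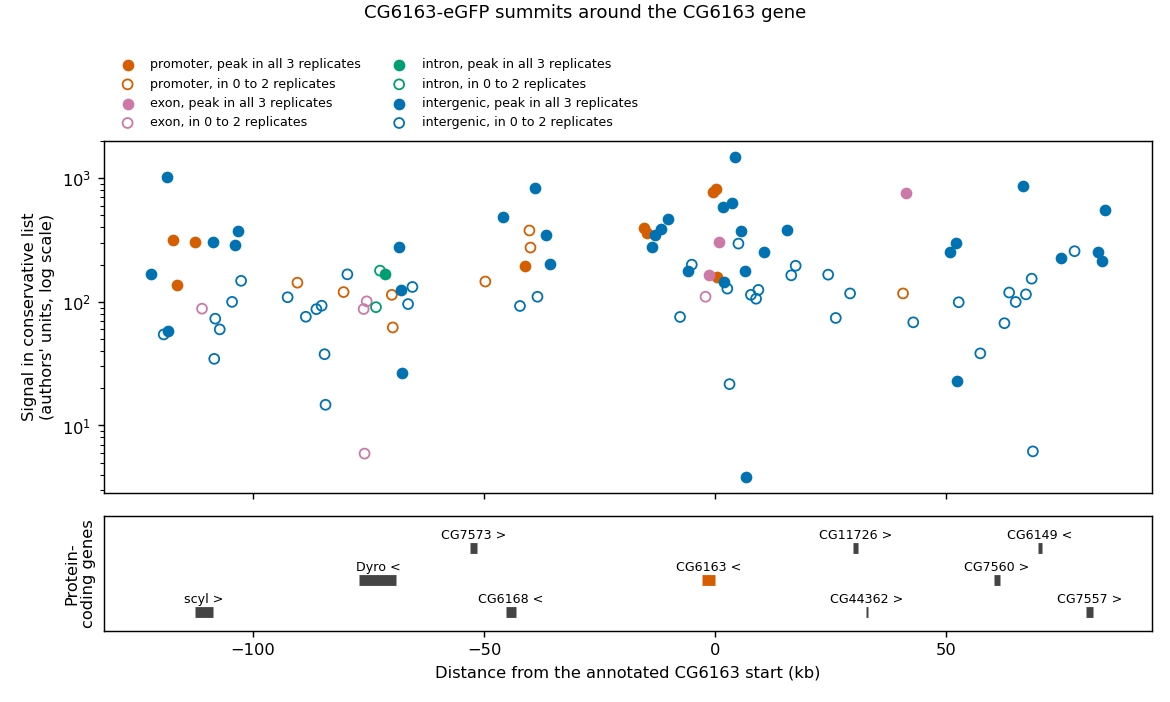
Upper panel, signal of each of the 103 summits in the conservative list (authors' units, log scale) against distance from the CG6163 start in kb, coloured by position and filled where all 3 replicates had a peak. Lower panel, the 10 protein-coding genes, with arrowheads for the reading direction. The highest point, 1495, lies just right of the CG6163 start, and 20 of the 48 filled points have CG6163 as the nearest protein-coding start.

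Signal is the authors' value per peak, on a scale that is not stated. Where replicates are set side by side, differences between them and differences in scale between their lists cannot be told apart. In the conservative list the 103 summits had a median signal of 154, against 139 for the rest, and ranged between 3.86 and 1495. The strongest ranked 91 in the list, and 12 of 103 (11.7%) were among the 1089 strongest of the 10892 peaks on the main chromosomes. A q-value above 0.05 applied to 31.1% of them, against 33.7% of the rest.

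Most of these summits lay between genes. Of the 103, 75 were intergenic, which is 72.8% (95% exact interval 63.2 to 81.1), against 16.2% of the other summits. Promoters, meaning within 500 bp of any annotated transcript start, held 17, or 16.5% (9.92 to 25.1), against 35.8%. Introns outside promoters held 3, or 2.91% (0.605 to 8.28), against 44.4%. Coding exons held 5, or 4.85% (1.59 to 11.0), against 0.723%, other exons 2, 3' UTRs 1 and 5' UTRs 0 (interval up to 3.52%). Only 213 bases of the stretch were 5' UTR outside promoters. Intervals cover counting error only, and neighbouring summits are not independent. The stretch was outlined on these same peaks, so the intervals are a description and test no difference from the other summits. The replicates' own lists gave 71.1% ± 2.37 intergenic, 20.3% ± 2.46 promoter and 3.4% ± 0.885 intron (SD, n = 3).

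The stretch itself was mostly intergenic. Intergenic bases were 78.1% of the stretch, against 27.2% of the rest, and intron bases 2.68%, against 39.5%. Set against the bases of each class, summits were denser in the stretch in every class that held any. Intergenic sequence had 45.7 summits per 100 kb, against 4.81 elsewhere, and introns had 53.4, against 9.07. Promoters had 68.1, against 21.3, so the ratio was 9.52 for intergenic sequence and 3.19 for promoters. Coding exons had 72.6 per 100 kb, against 0.445, from only 5 summits in 6886 bases. Of these 5, 1 had a thresholded peak in all 3 replicates and 3 had one in 0 replicates. The own lists of replicates 1, 2 and 3 held 2, 2 and 1 coding exon summits in the stretch.

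**Figure D3:**
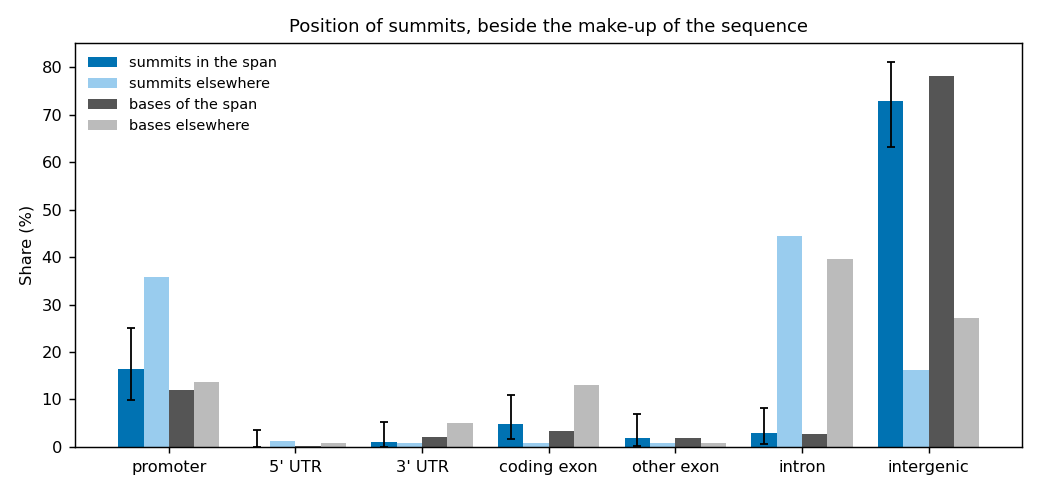
Share in percent of summits and of bases by class, from left to right in each class the summits of the stretch (with exact 95% intervals), the summits elsewhere, the bases of the stretch and the bases elsewhere. Intergenic sequence holds 72.8% of the summits and 78.1% of the bases of the stretch, against 16.2% and 27.2% elsewhere.

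Signals at these classes overlapped widely. The median was 194 for the 17 promoter summits (62.1 to 825), 148 for the 75 intergenic ones (3.86 to 1495) and 168 for the 3 in introns (90.6 to 179). All 5 summits in coding exons had signals between 5.92 and 164. Of the promoter summits 9 had a peak in all 3 replicates, and of the intergenic ones 35 did. The limit of 500 bp passed close to some summits. The 2 nearest inside it lay 408 and 436 bp from a start, with signals of 138 and 158, and the 2 nearest outside lay 509 and 521 bp away, with 757 and 57.7.

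Most promoter summits lay nearest to a noncoding start, in a stretch with 19 noncoding and 10 protein-coding genes. Of the 17, 12 had a noncoding RNA start as the nearest and 5 a protein-coding one, and 11 lay upstream of that start. Among the 12 is the summit 452 bp inside CG6163, which is also within 500 bp of that gene's start. The count of 17 rests on the limit: it was 7 within 200 bp, 26 within 1000 bp and 6 with protein-coding starts only. Over all 103 summits the nearest start was protein-coding for 53 and noncoding for 50, at a median distance of 2943 bp. To the nearest protein-coding start the median was 4702 bp.

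At the level of genes, 3 of the 10 genes, scyl, Dyro and CG6163, had a summit within 500 bp of a start in the conservative list, where 24.2% of all protein-coding genes did. In the replicates' own lists the number was 3, 3 and 2 of 10 (2.67 ± 0.577, SD, n = 3), where 18.9%, 19.7% and 17.3% of protein-coding genes in replicates 1, 2 and 3 had one. With 10 genes, 3 is close to these shares. By the nearest start of any kind 7 of the 10 were nearest to at least 1 summit, and by the nearest protein-coding start all 10 were. Summits lay within the bodies of 3 genes.

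**Figure D4:**
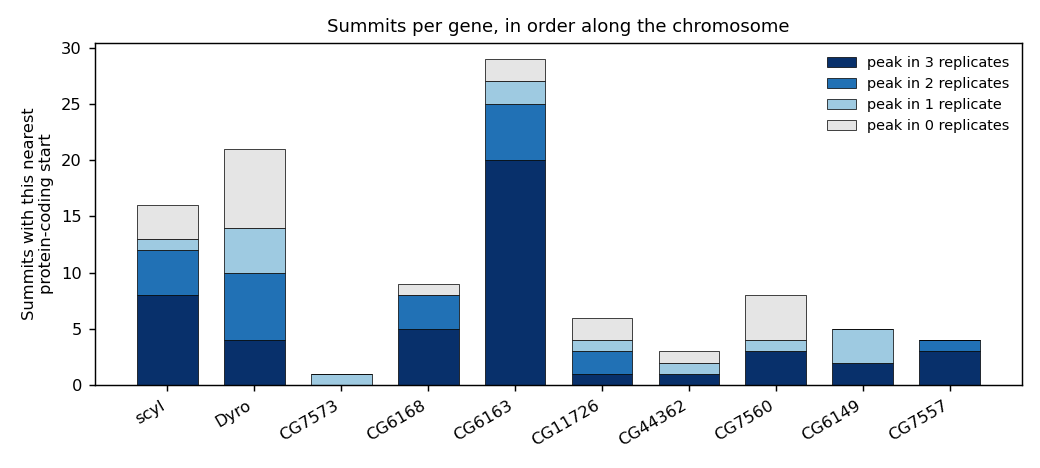
Number of conservative summits for which each gene has the nearest protein-coding start, stacked by the number of replicates with a thresholded peak, genes in order along the chromosome. CG6163 has 29, of which 20 have a peak in all 3 replicates, Dyro 21 with 4, scyl 16 with 8 and CG7573 1 with 0.

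CG6163 (FBgn0036155, chr3L:11361986-11364885, minus strand) had the most. Its start was the nearest protein-coding start for 29 summits, of which 20 had a peak in all 3 replicates and 2 in none. The replicates' own lists gave it 24, 32 and 22. Signals ran between 3.86 and 1495, with a median of 253. A summit 222 bp upstream of its start had a conservative signal of 825, and signals of 300, 379 and 171 in replicates 1, 2 and 3. It was high in all 3, and lowest in replicate 3. Inside the first part of the gene, 452 bp from the start and in an intron, a summit had a conservative signal of 781 and 268, 276 and 248 in the replicates, which lay close together (264 ± 14.1, SD, n = 3). That summit counts as a promoter one because the gene's own start lies within 500 bp, and the start of the noncoding RNA gene lncRNA:CR45036, which reads the other way, lay 250 bp from it. The summit 222 bp upstream lay in an exon of that noncoding gene. Another promoter summit, 436 bp upstream, had 158, and 44.9, 126 and 171 in replicates 1, 2 and 3. In replicate 3 the value 171 is that of the same peak as the summit 222 bp upstream. It is unknown how far an inserted copy would reach past the gene. Its DNA therefore cannot be told apart from native DNA in the flanking sequence either.

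The strongest site near CG6163 was farther upstream. It lay 4343 bp from the start and had a conservative signal of 1495, and 562, 670 and 291 in replicates 1, 2 and 3 (508 ± 195, SD, n = 3). It was the strongest of the stretch in every replicate's values. A summit 3665 bp upstream had 625, below the 825 and 781 beside the start, and 317, 244 and 108 in the replicates. A summit 1721 bp upstream had 588, and 183, 217 and 107. Replicate 3 was lowest at each of these. Weaker summits lay in the gene's coding exons, 1272 bp and 2109 bp from the start, with conservative signals of 164 and 110 and a peak in 3 and 2 replicates. Downstream of the gene, 6 summits between 10238 and 15483 bp from its start had the noncoding gene lncRNA:CR45251 as the nearest start. All 6 had a peak in all 3 replicates, with a median signal of 374.

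The gene scyl (FBgn0041094, chr3L:11252307-11256172, plus strand), 112.6 kb to the left, was the nearest protein-coding start for 16 summits, 8 of them with a peak in all 3 replicates. Its promoter summit lay 20 bp upstream of the start, within the 100 bases printed above, with a conservative signal of 303 and 111, 128 and 88.4 in the replicates. The strongest summit assigned to it lay 6074 bp upstream, among short noncoding genes, with 1021, and 350, 458 and 145 in the replicates (318 ± 159, SD, n = 3). Replicate 3 was well below the others there. Downstream, a summit 4020 bp past the start had 307, and one 9324 bp past it 376, each with a peak in all 3 replicates. The 1 summit inside the gene, in coding sequence, had 88.1 and a thresholded peak in 0 replicates.

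Dyro (FBgn0036152, chr3L:11287936-11295919, minus strand), 69.0 kb to the left, had many summits of low signal. It was the nearest protein-coding start for 21, with a median of 96.0 and a highest of 279, and 4 of them had a peak in all 3 replicates and 7 in none. The replicates' own lists gave 10, 9 and 5. The gene has 2 annotated starts, and 2 promoter summits lay 145 and 346 bp upstream of one of them, with signals of 114 and 62.1. A single peak in each replicate covered both, with 44.8, 56.6 and 11.7 in replicates 1, 2 and 3, and it passed the threshold in replicates 1 and 2. The strongest Dyro summit lay 552 bp upstream, just past the promoter limit, with 279 and a mean of 97.2 ± 7.33 over the replicates (SD, n = 3). Dyro also held the 3 intron summits of the stretch that lay outside promoters, with signals of 90.6, 179 and 168.

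The other genes had no summit at their starts. CG6168 (chr3L:11319642-11321719) was the nearest protein-coding start for 9, of which the strongest, 4160 bp upstream and close to lncRNA:CR44723, had 827, and 289, 296 and 248 in the replicates. Those 3 values lay close together (278 ± 26.1, SD, n = 3). Its nearest summit, 922 bp away, had 92.6 and a thresholded peak in 0 replicates. CG7573 (chr3L:11311747-11313397) had 1 summit, 3411 bp away, with 146, at the start of lncRNA:CR44361.

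To the right of CG6163, CG11726 (chr3L:11394690-11395673) was the nearest protein-coding start for 6 summits with a median of 165, the closest of them 653 bp away with 117 and a thresholded peak in 0 replicates. CG44362 (chr3L:11397542-11397865) had 3, of which the strongest lay in an exon of lncRNA:CR44363 with 757, and 285, 281 and 203 in the replicates. CG7560 (chr3L:11425158-11426395) had 8 with a median of 99.5, 3 with a peak in all 3 replicates and 4 with none. Among those 3 is a summit of 22.7 that lay 266 bp from one of 297, to which its matches may belong. CG6149 (chr3L:11434695-11435476) had 5, with a strongest of 866, and 309, 299 and 239 in the replicates (282 ± 38.1, SD, n = 3). CG7557 (chr3L:11445161-11446579) had 4, all at or above 216, the strongest with 553 and 187, 206 and 151 in the replicates. At 4 of these 5 genes, all but CG11726, the closest summit was at least 1914 bp from the start.

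**Figure D5:**
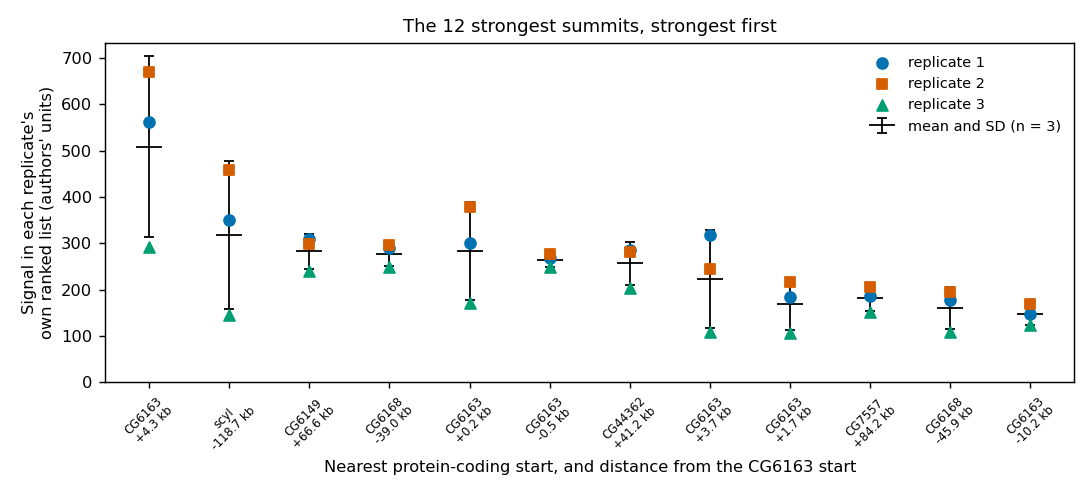
Signal in each replicate's own ranked list (authors' units) at the 12 strongest summits of the stretch, named by nearest protein-coding start and distance in kb from the CG6163 start along the chromosome, with mean and SD (n = 3). Replicate 3 is the lowest point at all 12, and the spread is widest at the strongest summit, 508 ± 195.

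Matches in the 3 replicates were about as frequent as elsewhere. A peak in all 3 thresholded lists, by an overlap of 1 bp, was found for 48 of 103 (46.6%), against 40.2% of the other peaks and 40.3% of all. Another 21 (20.4%, against 21.3%) had a peak in 2, 14 (13.6%, against 19.0%) in 1 and 20 (19.4%, against 19.5%) in none. Matched summits were stronger, with a median signal of 300 for a peak in all 3, 143 in 2, 110 in 1 and 87.4 in none. Both the signal and the matches come from the same 3 replicates, so this order is largely built in. The authors' lists of thresholded peaks matched 69 summits in replicate 1, 74 in replicate 2 and 57 in replicate 3. Their longer ranked lists, which also hold peaks past no threshold, matched 100, 102 and 102. Of the 20 summits with no thresholded peak, 18 had a ranked one in every replicate.

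Summit positions were also set side by side. For the 48 summits matched in all 3 replicates, the farthest of the replicates' own summits lay a median of 34.0 bp away. It lay within 50 bp for 38 and within 100 bp for 41, and the largest distance was 248 bp. Matches needed overlap and the nearest summit was read, so closeness is partly built in. For the 12 strongest the median was 19.5 bp and the largest 39.0 bp. Signals were read from each replicate's own list, so spread between replicates and differences in scale between lists cannot be told apart. Of the 98 summits with a ranked peak in every replicate, replicate 3 was lowest at 68, replicate 1 at 23 and replicate 2 at 7, and the median coefficient of variation over replicates was 23.4%. Spearman's rho was taken across the summits with a ranked peak in both replicates compared, as a description over sites that share libraries. The conservative list keeps peaks by their IDR, so stable ranks were partly selected for and rho tests no agreement. It was 0.877 for replicates 1 and 2 (n = 91, each pair of library peaks counted once), 0.817 for 1 and 3 (n = 91) and 0.797 for 2 and 3 (n = 92).

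Some summits lay in close pairs, which were counted in the stretch alone. In 15 pairs of neighbouring summits the peaks overlapped or the summits lay within 250 bp, with gaps of 199 to 366 bp, and 8 of the gaps were at most 210 bp. The weaker summit had a median signal of 34.6 and the stronger one 178. The lowest signal of the stretch, 3.86, lay 204 bp from a summit of 178 near CG6163, and 1 peak in each replicate covered both. A match for the weaker of such a pair can therefore belong to its neighbour. With 1 peak per merged region, 91 remained of 103.

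The genes of the pathway around scyl were read from a list of 15 hypoxia and TOR genes. Of these, 8 (53.3%) had a promoter summit, where 24.2% of all protein-coding genes did. The list was drawn up around scyl with earlier results of these data known, and scyl counts among the 8. The shares are therefore a description, with no test. In replicates 1, 2 and 3 the numbers were 6, 8 and 5 of 15 (6.33 ± 1.53, SD, n = 3). Of all protein-coding genes, 18.9%, 19.7% and 17.3% had a promoter summit in those replicates. The strongest signals were at mTor (312), the TOR kinase gene, scyl (303), sima (288), which encodes the hypoxia-inducible factor, and foxo (216), a transcription factor restrained by insulin signalling. Lower ones lay at chrb (179), Thor (173), which encodes the translation inhibitor 4E-BP, Hph (155), the oxygen sensor that marks sima for destruction, and raptor (144), a TOR complex subunit. The Hph summit had a thresholded peak in 0 replicates, the raptor summit in 1 and the strongest chrb promoter summit in 2. The genes gig, Tsc1, Rheb, S6k, rictor, Lst8 and AMPKalpha had none. The relative of scyl, chrb, starts on the same arm 37.5 kb past the right limit of the stretch and held 5 summits with signals of 42.9 to 198, of which 2 had a peak in all 3 replicates.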

How the data were processed

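Peak lists on dm6 from 3 biological replicates of 1 group were used. Per the labels' notes on the files, a replicate's lists derive from that replicate's alignment and the series lists from the alignments of all 3, each also from 1 file common to every list. Sonicated fragments were 200 to 800 bp, per the labels. For the aligner and the peak caller the answer is: not given in the sources used here. Each line gives the authors' signal per peak, whose scaling is not stated. It also gives a score per peak by the authors, at least 830 in the conservative list, that rises as the irreproducible discovery rate (IDR) falls. The −log10 values of q and IDR deposited by the authors served as filters.

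The main set was the conservative list, of which all but 2 peaks lay on the main chromosomes. Coordinates are 1-based. Genes came from Ensembl 115 without transposable elements, and sequence from RefSeq Release 6, beyond whose chromosome ends 0 peaks lay. A summit near a start was a promoter summit first. Those left were sorted into UTRs, then coding exons, other exons and introns, and the remainder were intergenic. A match needed 1 bp of overlap with a library's thresholded peak, and a library's signal is that of the overlapping ranked peak with the nearest summit. All 10 genes, any other gene nearest to a summit and the pathway list were open to naming. The members and lists were chosen with earlier results of these data known, and no test was run. The older symbol Tor was read as mTor. Alternatives changed the peak list, the limits on IDR and q, the promoter distance, the overlap rule and the replicates. Intervals are exact Clopper-Pearson 95% intervals. The sequence of 1 summit window is not reported here. The functions were tested on simulated data. The software was Python 3.11.15 with pandas 2.3.3, NumPy 2.4.6, matplotlib 3.10.9 and SciPy 1.17.1.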

Additional observations from a re-analysis of the deposited data

How the results depend on the processing

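Of 32 alternative values, 27 stayed within 1.5 times the reported count and 5 moved further. The 103 summits of the stretch fell to 68 at an IDR of 0.001 or lower. The 17 promoter summits became 7 within 200 bp of a start, 26 within 1000 bp and 6 with protein-coding starts only. The genes with a promoter summit became 5 of 10 within 1000 bp, against 3. Summits matched in all remaining replicates numbered 51 to 62 when each replicate was left out in turn, against 48 with all 3. The other lists of the series, of 8933, 9110 and 12445 peaks, gave 91, 88 and 103 summits in the stretch, and a q-value of 0.05 or lower 71.

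No paired analysis was possible because there is only 1 group. The lists of the whole series could not be remade without a replicate. The number of reads and the control experiment were not used, so weak summits rest on the authors' thresholds alone.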

Other observations

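Summits left some parts of the stretch empty. The largest gap between neighbouring summits, 20290 bp, lay between CG6168 and CG6163 (3L 11329112 to 11349402), and the next, 15774 bp, around CG7573 (3L 11299384 to 11315158), while the median gap was 1006 bp. The first gap holds an annotated jockey element of 3130 bp. Elements of the families 17.6 (6895 bp) and Rt1a (936 bp) lie elsewhere in the stretch. All 3 held 0 summits in the conservative list and in each replicate's own list, and whether reads can be placed uniquely in them was not tested.

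One width was common among the peaks. Exactly 370 bp was the width of 64.1% of the peaks in the stretch, against 75.7% of the rest, and widths in the stretch ran between 94 and 1136 bp. The widest interval, upstream of CG6163, held 3 summits, with signals of 825, 158 and 304.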
